A study of Saccharomyces cerevisiae with 14 samples.

Results

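The estradiol effect was averaged over 3 times of treatment in a budding yeast strain (Saccharomyces cerevisiae) in which estradiol induces SWI4. It used the 12 treated libraries of 14: 6 given 5 nM beta-estradiol dissolved in ethanol and 6 given ethanol alone, in each case 2 at 1 h, 2 at 2 h and 2 at 4 h. A single treatment effect per gene was fitted across the 12 libraries with time as an additive factor, which left 8 residual degrees of freedom. The 2 untreated libraries, taken at 0 h, entered the levels, the comparison of libraries and the spread used for the single times, and not the reported average. All libraries came from the genotype Z3EVpr-SWI4, in which a synthetic estradiol-activated factor drives SWI4, and cells were kept in synthetic complete medium holding 2% glucose. No group lacks the construct, so the effects of Swi4, of estradiol and of the synthetic factor cannot be told apart. Whether replicates, or the 3 times, were separate cultures is not in the labels, and p-values here cover only the spread among these libraries.

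Swi4 is the DNA-binding subunit of SBF, which with Swi6 turns on G1 cyclin, cell wall and budding genes at the start of a cell cycle. Its close relative Mbp1 forms MBF with the same partner and serves DNA replication and repair genes. Whi5 holds SBF inactive in early G1 until cyclin-dependent kinase releases it. SBF sites are read as the SCB element, CACGAAA or the looser CNCGAAA, and MBF sites as the MCB element, ACGCGT.

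Library totals ran from 3.47 M to 17.3 M counts, and the ethanol libraries at 1 h and 2 h were the shallowest. Replicates correlated at 0.957 (estradiol 2 h) to 0.993 (untreated) on log2 CPM, where CPM is the count scaled to a library total of 1 M. The first principal component of the 14 libraries, 39.3% of the variance, did not follow the treatment, and on it the replicates of estradiol 2 h (20.1 and -27.3) and of ethanol 1 h (-27.1 and 11.9) lay far apart. On the second, 28.4% of the variance, all 6 estradiol libraries lay above 0 and all ethanol and untreated libraries below it. SWI4 counts checked the induction: its level was 12.1 to 23.0 CPM in the 6 ethanol libraries and 668 to 1731 CPM in the 6 estradiol libraries, with no overlap. The a-cell markers were present and MF(ALPHA)1, a defining marker of alpha cells, held 0 to 7 counts in each library. The other alpha-cell markers were detected in every library. MF(ALPHA)2 held 3 to 48 counts, STE3 10 to 75, SAG1 44 to 331 and AFB1 63 to 320.

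The 4 promoters below are shown for the members that frame the result: PCL1, a Pho85 cyclin gene with a large response at every time, and MCD1, CDC6 and KCH1, which passed the test in the average and at no single time. They were chosen for holding a match. The sequence is that of RefSeq assembly R64 (300 bases, from 400 to 101 bases before the start codon, written 5′ to 3′ on the coding strand), with every match to CNCGAAA or ACGCGT on either strand in capitals. The positions are chrXIV:87497-87796 for PCL1, chrIV:444283-444582 for MCD1, chrX:68938-69237 for CDC6 and chrX:535656-535955 for KCH1, all on the plus strand.
PCL1: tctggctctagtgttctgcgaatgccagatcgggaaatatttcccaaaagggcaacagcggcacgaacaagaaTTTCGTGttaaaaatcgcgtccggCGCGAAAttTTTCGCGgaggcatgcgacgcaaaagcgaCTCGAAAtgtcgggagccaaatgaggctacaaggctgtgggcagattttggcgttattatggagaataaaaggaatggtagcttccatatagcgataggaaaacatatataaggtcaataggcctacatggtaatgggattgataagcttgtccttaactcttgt
MCD1: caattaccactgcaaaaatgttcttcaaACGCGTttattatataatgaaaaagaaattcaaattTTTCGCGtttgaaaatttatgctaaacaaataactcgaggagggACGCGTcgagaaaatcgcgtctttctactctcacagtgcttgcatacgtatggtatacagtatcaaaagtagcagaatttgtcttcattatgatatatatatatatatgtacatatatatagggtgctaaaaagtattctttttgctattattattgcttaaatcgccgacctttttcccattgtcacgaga
CDC6: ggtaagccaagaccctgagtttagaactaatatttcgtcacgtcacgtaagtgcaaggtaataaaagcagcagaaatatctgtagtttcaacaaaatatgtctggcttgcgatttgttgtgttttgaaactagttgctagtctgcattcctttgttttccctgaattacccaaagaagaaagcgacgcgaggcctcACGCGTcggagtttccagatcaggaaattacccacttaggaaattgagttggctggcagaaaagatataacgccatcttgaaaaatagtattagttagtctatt
KCH1: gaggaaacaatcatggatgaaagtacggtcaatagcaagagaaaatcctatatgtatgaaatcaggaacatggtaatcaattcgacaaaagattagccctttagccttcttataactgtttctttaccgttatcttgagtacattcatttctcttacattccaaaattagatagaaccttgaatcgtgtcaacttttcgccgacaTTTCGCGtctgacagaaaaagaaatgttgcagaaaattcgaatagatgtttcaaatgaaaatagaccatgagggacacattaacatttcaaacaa

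PCL1 held 4 matches to CNCGAAA, whose first bases lay 327, 303, 294 and 265 bases before the start codon, and the first of these was also a CACGAAA. MCD1 held ACGCGT at 372 and 292 bases and 1 CNCGAAA at 336 bases. CDC6 held 1 ACGCGT at 204 bases, and KCH1 held 1 CNCGAAA at 195 bases. A match is a description of the letters and not evidence of binding.

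Averaging over the 3 times called 393 of 6320 genes, 6.22% of those tested, by edgeR's quasi-likelihood test at a Benjamini-Hochberg adjusted p under 0.05. Of these, 208 were higher (3.29%) and 185 lower (2.93%) with estradiol. The single-time contrasts, each with 2 libraries a side, called 0.473% of 6337 genes higher and 0.489% lower at 1 h, 0.899% and 0.363% at 2 h, and 1.18% and 0.694% at 4 h. In all, 141 genes (2.23%) passed at 1 or more times. The average therefore held 256 genes (4.05%) that no single time called, 128 higher (2.03%) and 128 lower (2.03%).

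**Figure D1:**
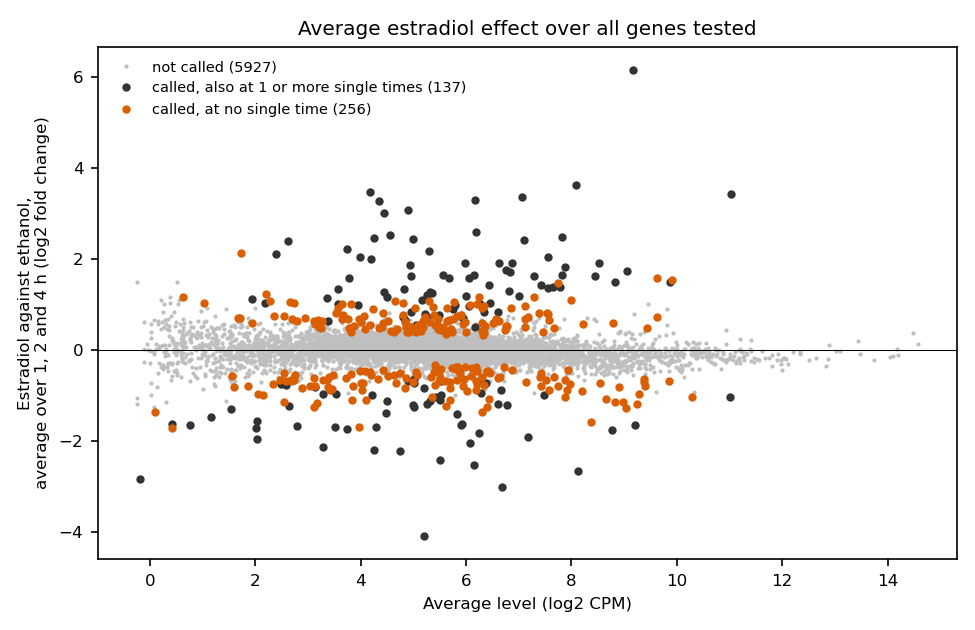
Average estradiol effect of all 6320 genes (log2 fold change, y axis) against their average level (log2 CPM, x axis). Grey points are the 5927 genes not called, black points the 137 called also at 1 or more single times and orange points the 256 called at no single time, which lie mostly closer to 0. The choice of the 256 as missed at every single time largely fixed this.

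The 256 genes had smaller changes than those a single time resolved, which their choice as missed at every single time largely fixed. Their absolute log2 fold changes ran from 0.32 to 2.13 with a median of 0.66, and 213 of them changed by less than 2-fold and 91 by less than 1.5-fold. The 137 genes called also at a single time had a median of 1.44. The median standard error (SE) over all genes was 0.154 in the average, against 0.271, 0.269 and 0.254 at 1, 2 and 4 h. The smallest change called was 0.32 in the average and 0.90, 0.81 and 0.83 at the single times, all on the log2 scale. All 256 had the same sign at each of the 3 times, and in 195 of them, 84 higher and 111 lower, the 2 estradiol libraries were beyond the 2 ethanol libraries at every time. Over all genes tested, 220 (3.48%) were higher and 266 (4.21%) lower without overlap at all 3 times. The average and the single times share their libraries, so these counts are not independent of one another.

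Just inside the threshold lay RHO3 (adjusted p = 0.0489 by edgeR), TMA10, SOK2 and YOR385W, and just outside it YRF1-6 (0.0503), YDR170W-A, PAL2 and TGL2. When each of the 12 libraries was left out in turn, 70 of the 256 calls, 30 higher and 40 lower, were kept every time. When libraries of the same treatment and replicate number were allowed to share a deviation, as they would if the 3 times came from 1 culture, 52 of the 256 were kept. With library totals as the only scaling, 34 of the 128 higher and 55 of the 128 lower calls were kept. The 20 genes described first below were kept whichever library was left out, 19 of them also with a shared deviation (not ATG40, adjusted p = 0.0595), and 10 also with library totals: RGL1, CDC28, and the 8 lower genes other than RAD27 and MCM2.

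The 10 higher genes with the smallest p among those called at no single time, with no overlap at any time, included the genes of the cell cycle kinase, a cohesin subunit and an origin licensing factor. RGL1 (YPL066W), which regulates Rho1 signalling, ran from 36.7 to 54.5 CPM (median 51.0) in ethanol and from 83.6 to 114 CPM (median 96.4) in estradiol. All 6 estradiol libraries lay above all 6 ethanol libraries, and RGL1 rose by 1.02 (SE 0.13, n = 6, adjusted p = 0.000366 by edgeR). At 1, 2 and 4 h its values were 1.08, 0.93 and 1.02, with adjusted p-values of 0.066, 0.119 and 0.0514 in edgeR's single-time contrasts.

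MCD1 (YDL003W), the cohesin subunit that closes the ring around sister chromatids, ran from 31.0 to 55.5 CPM (median 47.4) in ethanol and from 60.8 to 153 CPM (median 95.1) in estradiol. No ethanol library reached the lowest estradiol library, which was 1 h replicate 2, and the highest values were those of replicate 1 at 2 h and 4 h. MCD1 rose by 1.18 (SE 0.20, adjusted p = 0.00326), and its single-time values were 0.86, 1.27 and 1.34. It was the only one called of 9 genes for cohesin and its loaders.

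CDC6 (YJL194W), which loads the MCM helicase at origins, ran from 6.81 to 10.2 CPM (median 7.80) in ethanol and from 12.5 to 16.4 CPM (median 13.96) in estradiol. Its groups did not overlap, and it rose by 0.81 (SE 0.12, adjusted p = 0.00135). YJL195C, next to CDC6 by its name, was also called higher and at no single time. Whether they share reads was not tested, so CDC6 is uncertain. CDC28 (YBR160W), the main cyclin-dependent kinase of the yeast cell cycle, ran from 56.1 to 70.7 CPM (median 63.8) in ethanol and from 78.4 to 107 CPM (median 94.4) in estradiol. The groups again did not overlap, and CDC28 rose by 0.59 (SE 0.10, adjusted p = 0.00395), a change that no single time resolved (0.49, 0.53 and 0.72). HST3 (YOR025W), a histone deacetylase of the sirtuin family, ran from 24.8 to 30.3 CPM (median 28.8) and from 37.8 to 62.8 CPM (median 43.5), and rose by 0.72 (SE 0.12, adjusted p = 0.00347).

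KCH1 (YJR054W), a potassium importer, ran from 22.7 to 46.2 CPM (median 36.4) in ethanol and from 52.9 to 93.7 CPM (median 71.9) in estradiol, and rose by 1.05 (SE 0.19, adjusted p = 0.00412). FKS3 (YMR306W), a relative of the cell wall glucan synthases, ran from 14.7 to 26.1 CPM (median 23.0) and from 33.2 to 57.0 CPM (median 40.6), and rose by 0.93 (SE 0.17, adjusted p = 0.00667). CRP1 (YHR146W), a cruciform DNA-binding protein gene, rose by 0.66, ATG40 (YOR152C), a receptor for autophagy of the endoplasmic reticulum, by 0.67, and DAP1 (YPL170W), a heme-binding protein gene, by 0.52. In all 3 the lowest estradiol library lay above the highest ethanol library, narrowly for DAP1 (29.54 against 29.48 CPM) and ATG40 (12.7 against 12.4 CPM).

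**Figure D2:**
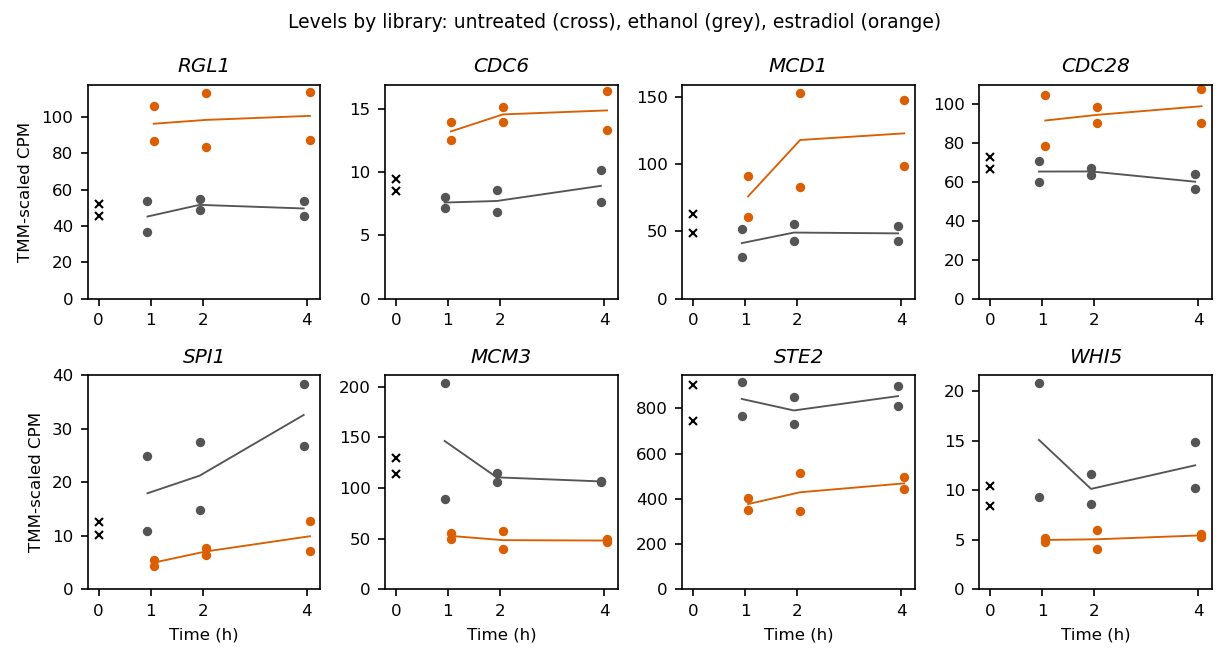
TMM-scaled CPM (y axes, each from 0) against hours of treatment (x axes) for 8 genes called in the average and at no single time, 1 point per library, with lines through the means of the 2 libraries of a group and crosses for the untreated libraries. At every time both estradiol points lie above both ethanol points for the 4 genes in the upper row and below them for the 4 in the lower row. The genes were chosen for this lack of overlap.

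The 10 lower genes chosen in the same way were led by a cell wall gene, a helicase subunit gene and the alpha-factor receptor gene. SPI1 (YER150W), a cell wall protein gene of starved cells, ran from 10.9 to 38.4 CPM (median 25.9) in ethanol and from 4.38 to 12.7 CPM (median 6.74) in estradiol. Means were higher at 4 h than at 1 h in both treatments, so the ranges over all times overlapped while those within a time did not, and the untreated libraries held 12.6 and 10.03 CPM. SPI1 fell by 1.70 on the log2 scale (SE 0.23, adjusted p = 0.00065).

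MCM3 (YEL032W) and MCM2 (YBL023C) encode subunits of the replicative helicase. MCM3 ran from 89.5 to 203 CPM (median 107) in ethanol and from 39.7 to 57.1 CPM (median 49.8) in estradiol, and fell by 1.26 (SE 0.17, adjusted p = 0.000661). The 203 CPM came from ethanol 1 h replicate 1, and the call was kept without that library. YEL032C-A, next to MCM3 by its name, was also called lower, and whether they share reads was not tested. MCM2 ran from 50.7 to 60.3 CPM (median 56.1) and from 33.0 to 41.2 CPM (median 35.7), and fell by 0.59 (SE 0.09, adjusted p = 0.00181), with no overlap between the treatments. RAD27 (YKL113C), the nuclease that trims Okazaki fragments, ran from 103 to 130 CPM (median 121) and from 65.6 to 90.5 CPM (median 81.0), and fell by 0.60 (SE 0.09, adjusted p = 0.00174).

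STE2 (YFL026W), the receptor for alpha-factor, ran from 729.9 to 919 CPM (median 832) in ethanol and from 346 to 512 CPM (median 422) in estradiol. The 2 untreated libraries, at 902 and 745 CPM, lay in the ethanol range, and STE2 fell by 0.96 (SE 0.14, adjusted p = 0.000864). RAM1 (YDL090C), a subunit of the farnesyltransferase that modifies a-factor and Ras, ran from 50.3 to 61.2 CPM (median 53.6) and from 24.3 to 39.7 CPM (median 31.1), and fell by 0.77 (SE 0.12, adjusted p = 0.00131).

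WHI5 (YOR083W), the repressor of SBF, ran from 8.58 to 20.8 CPM (median 10.9) in ethanol and from 4.05 to 6.02 CPM (median 5.22) in estradiol. Every estradiol library lay below every ethanol library and below both untreated libraries (10.4 and 8.35 CPM), and WHI5 fell by 1.25 (SE 0.20, adjusted p = 0.00218). Its single-time values were -1.53, -1.04 and -1.20, none of them called. YOR082C, next to WHI5 by its name, was also lower and was called at a single time too. Whether they share reads was not tested, so WHI5 is uncertain. The last of the set were ARG3 (YJL088W), an arginine biosynthesis gene that fell by 0.71, ENB1 (YOL158C), an enterobactin transporter gene that fell by 1.07, and ATO3 (YDR384C), a putative ammonium exporter gene that fell by 1.23.

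**Figure D3:**
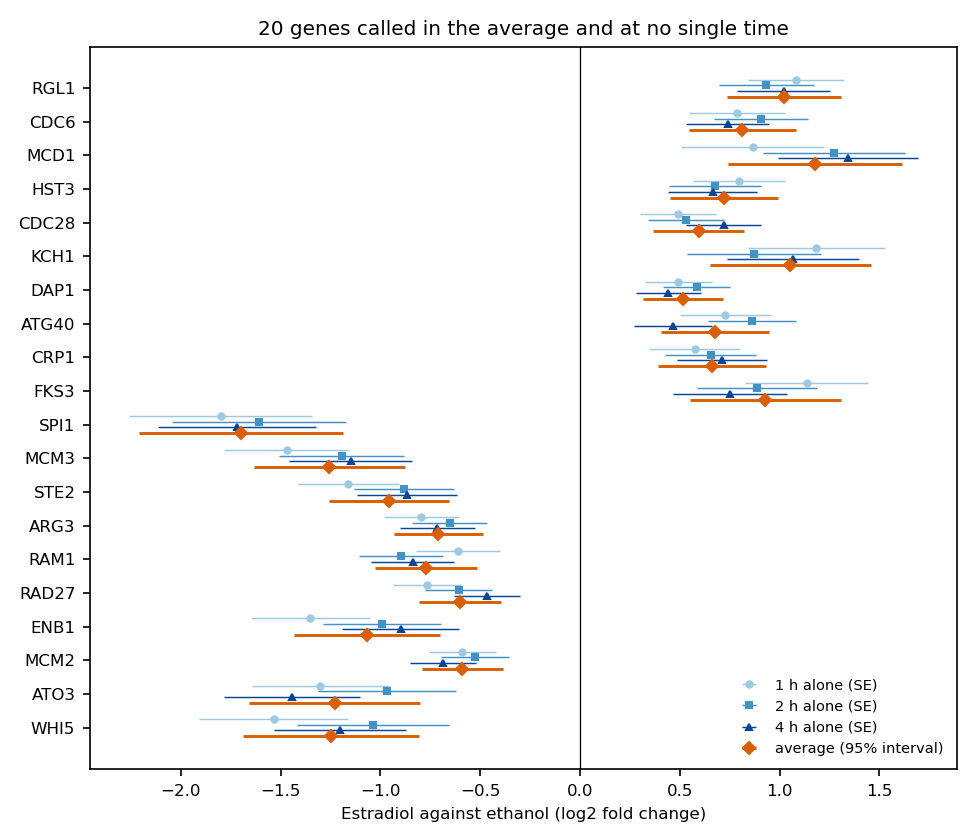
Log2 fold change of estradiol against ethanol (x axis) for 20 genes called in the average and at no single time (y axis). Blue points are the 3 single times with bars of 1 SE and orange diamonds the average with its 95% interval. The 3 single-time points of each gene lie on the same side of 0 as the average. The choice of genes without overlap at any time largely fixed this.

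The smallest changes called at no single time were taken from genes with a symbol and an average log2 CPM of at least 3, with or without overlap. RHO3 (YIL118W), a GTPase gene of polarised growth, ran from 67.2 to 82.8 CPM in ethanol and from 82.4 to 97.3 CPM in estradiol and rose by 0.32 (SE 0.09). RRM3 (YHR031C), a DNA helicase gene of fork progression, rose by 0.36 and CIR1 (YGR207C), a mitochondrial protein gene, by 0.38. PMT7 (YDR307W), a putative protein mannosyltransferase gene, fell by 0.33, DIP5 (YPL265W), an amino acid permease gene, by 0.36 and ASH1 (YKL185W), a daughter-cell repressor gene, by 0.36. None of these 6 was kept when same-numbered libraries of a treatment could share a deviation, with adjusted p-values of 0.138 to 0.2, and at most 3 of the 12 fits that leave out a library kept any of them.

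The counts of called list members below stand beside 3.29% higher and 2.93% lower, 6.22% in all, over all genes tested. Of the 14 subunits and regulators of SBF and MBF, 5 rose and 2 fell, with a median log2 fold change of 0.25 against 0.018 over all genes tested. YHP1 (YDR451C), a homeodomain repressor, rose by 1.65, NRM1 (YNR009W), which encodes a co-repressor for MBF, rose by 1.87, and each was called at single times too. MSA1 (YOR066W), an SBF and MBF activator gene, fell by 1.12, and WHI5 fell as above. SRL3 (YKR091W), which is also named WHI7 and encodes a relative of Whi5, was called in the average and at no single time, outside the naming rule, and was chosen after its values were seen. It ran from 24.4 to 37.4 CPM in ethanol and from 36.0 to 75.2 CPM in estradiol and rose by 0.77 (SE 0.17, adjusted p = 0.0162), against 17.5 and 13.7 CPM in untreated cells. SRL3 was the only one of the 7 calls lost with a shared deviation (adjusted p = 0.0623 by limma). The subunit genes SWI6 at 0.35 (SE 0.23) and MBP1 at 0.46 (SE 0.26) did not pass, and neither did CLN3 at -0.16 (SE 0.10).

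Of 12 G1 and Pho85 cyclin genes 4 rose, of which every member was also called at a single time: PCL1, CLN1, CLN2 and PCL2. PCL2 (YDL127W) ran from 27.2 to 38.2 CPM in ethanol and from 45.6 to 63.5 CPM in estradiol, and rose by 0.77 (SE 0.09, adjusted p = 0.000124). Of 6 B-type cyclin genes 4 rose and all 6 had a positive value (median 1.19). CLB5 (YPR120C) and CLB6 (YGR109C), cyclins of S phase, rose by 1.59 and 2.22. CLB2 (YPR119W), the main mitotic cyclin, was called at no single time: it ran from 14.4 to 35.1 CPM in ethanol and from 34.1 to 78.2 CPM in estradiol, and rose by 1.07 (SE 0.26, adjusted p = 0.0306). Its groups overlapped slightly over all times, and at 1 of the 3 times. Its call was lost with a shared deviation (adjusted p = 0.129 by limma) and with library totals (0.232 by edgeR), and the other 3 were kept under both.

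Of 31 SBF-regulated cell surface and bud growth genes, 17 rose and 1 fell (median 0.69), and 5 of the higher ones were called at no single time. Those 5 were CIS3, CWP2, OCH1, PLB3 and KRE6, named here after their values were seen. OCH1 (YGL038C), which starts the outer mannose chain of cell wall proteins, ran from 72.3 to 124 CPM in ethanol and from 94.2 to 181 CPM in estradiol and rose by 0.53 (SE 0.11, adjusted p = 0.0118), with values of 0.47, 0.54 and 0.55 at the 3 times. KRE6 (YPR159W), a gene of cell wall glucan synthesis, ran from 153 to 200.2 CPM and from 192 to 289 CPM and rose by 0.48 (SE 0.13). CWP2 (YKL096W-A) and CIS3 (YJL158C), abundant cell wall protein genes, rose by 1.55 (SE 0.30) and 1.59 (SE 0.32), and the single-time values of CWP2 were 1.16, 1.90 and 1.54, none of them called. Both were lower in untreated cells, at 185 and 168 CPM for CWP2 against 286 to 773 CPM in ethanol. The 1 member that fell was BUD9 (YGR041W), a bud site gene, at -0.43 (SE 0.10). Of the 18 calls 13 were kept with a shared deviation, OCH1 among them, while CIS3, CWP2, PLB3, KRE6 and BUD9 were lost, with adjusted p-values by limma of 0.0781, 0.0552, 0.147, 0.172 and 0.094.

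Of 45 DNA replication fork and repair genes 0 rose and 8 fell, 6 of them at no single time, and 35 of the 45 values were negative, with a median of -0.18. CDC21 (YOR074C), thymidylate synthase, and CDC9 (YDL164C), DNA ligase, fell by 1.12 and 0.73. YOR073W-A and YDL163W, next to CDC21 and CDC9 by their names, were also called lower. Whether they share reads was not tested, so CDC21 and CDC9 are uncertain. ASF1 (YJL115W), a histone chaperone gene, ran from 54.1 to 70.4 CPM in ethanol and from 30.0 to 49.1 CPM in estradiol and fell by 0.70 (SE 0.13, adjusted p = 0.00627). Of the 8 calls 5 were kept with a shared deviation, and 1 with library totals as the only scaling, at a list median of -0.105. Of 15 MCM helicase and origin licensing genes, CDC6 rose and 6 fell: every one of MCM2 to MCM7. MCM7 (YBR202W) ran from 61.6 to 103 CPM and from 25.1 to 33.7 CPM and fell by 1.39 (SE 0.12, adjusted p = 1.79e-05), and MCM6 (YGL201C), the least changed, fell by 0.48 (SE 0.13). Of these 7 calls 3 were kept with library totals, and all but that of MCM6 with a shared deviation (adjusted p = 0.11 by limma). Of 8 ribonucleotide reductase genes RNR1 and RNR2 rose, and of 9 cohesin genes MCD1 did. YJL026C-A, next to RNR2 by its name, was also called higher, and whether they share reads was not tested.

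Histone genes stood on the higher side: all 10 had a positive value (median 0.38) and 4 rose, none of them called at a single time. HHO1 (YPL127C), the linker histone, ran from 101 to 137 CPM in ethanol and from 120 to 315 CPM in estradiol and rose by 0.81 (SE 0.19, adjusted p = 0.0245). HHF2 (YNL030W) rose by 0.60 (SE 0.12), HTA2 (YBL003C) by 0.58 (SE 0.14) and HHT2 (YNL031C) by 0.49 (SE 0.12); each has a near-identical copy elsewhere in the genome, so these 3 are uncertain. Their single-time values were smallest at 1 h, at 0.29 for HHF2 against 0.78 and 0.69 at 2 h and 4 h, though the test for a change with time did not call them. None of the 4 was kept when same-numbered libraries of a treatment could share a deviation.

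Of 22 genes in the CLB2 cluster, which is transcribed as cells enter mitosis, 7 rose and 0 fell, none of the 7 at any single time, and the median was 0.46. The list's 1 call at a single time went the other way. It was WSC4, lower at 4 h (-0.99, adjusted p = 0.00944 by edgeR) and not called in the average (-0.34). HST3 rose as above. SWI5 (YDR146C), a transcription factor that activates early G1 genes, ran from 24.6 to 43.3 CPM in ethanol and from 45.9 to 96.1 CPM in estradiol, without overlap, and rose by 0.93 (SE 0.21, adjusted p = 0.0233). ALK1 (YGL021W), a mitotic kinase gene, rose by 0.78 (SE 0.18) and NUD1 (YOR373W), a spindle pole component gene, by 0.45 (SE 0.11). Of these 7 calls, 1 was kept with a shared deviation and 0 with library totals, under which the median was 0.50. Of 33 spindle and kinetochore genes 3 rose and 0 fell, against 3.29% higher and 2.93% lower over all genes tested. These were SPC42, HCM1 and the kinesin gene KIP3 (YGL216W). KIP3 rose by 0.39 (SE 0.10) with the like values 0.39, 0.38 and 0.37 at the 3 times. Its call was lost with a shared deviation (adjusted p = 0.149 by limma).

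**Figure D4:**
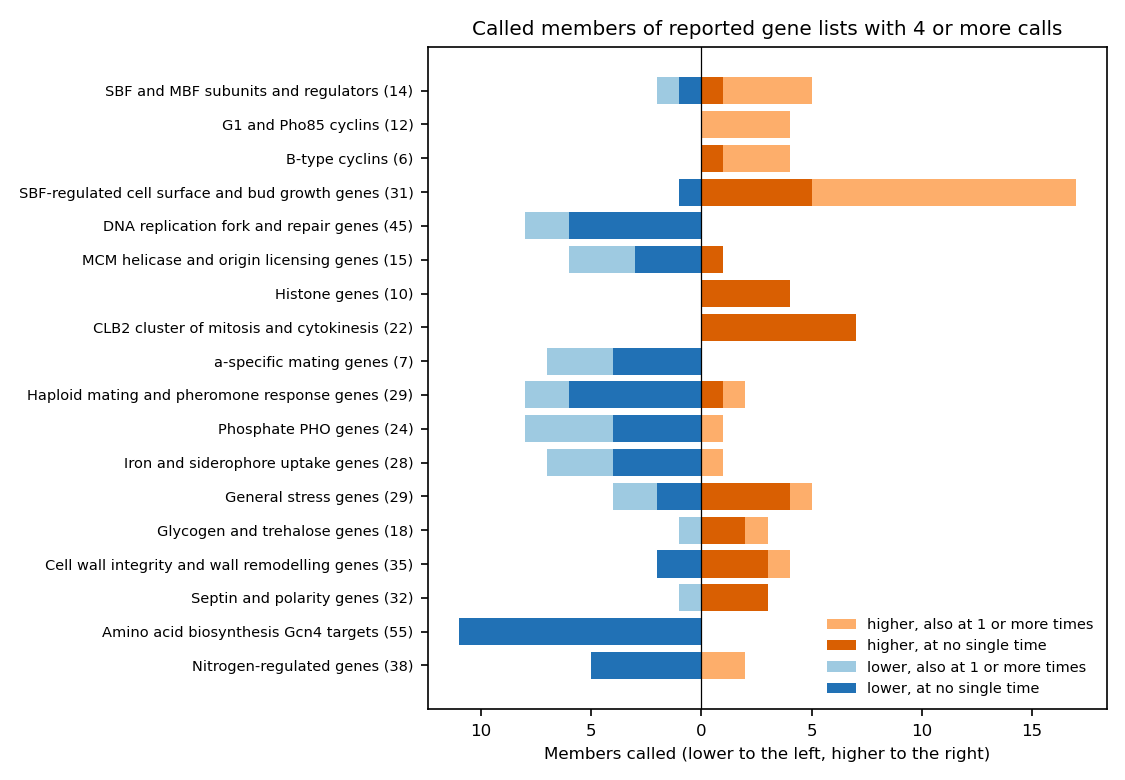
Number of members called higher (right) or lower (left) in the average (x axis) for the 18 reported gene lists with 4 or more calls (y axis, with the number tested in parentheses). Dark bars are members called at no single time and light bars those called also at 1 or more times: all 11 calls among the Gcn4 targets, all 7 in the CLB2 cluster and all 4 among the histone genes are dark.

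All 7 a-specific mating genes fell, against 2.93% of all genes, with a median of -0.96, and 4 of them were called at no single time. These were STE2, ASG7 (YJL170C; -0.79, SE 0.16), which acts after mating, BAR1 (YIL015W; -0.65, SE 0.16), the protease that degrades alpha-factor, and STE6 (YKL209C; -0.57, SE 0.15), the exporter of a-factor. BAR1 and STE6 were lost with a shared deviation (adjusted p = 0.0959 and 0.156 by limma), and STE6 also with library totals (0.597 by edgeR) and in 9 of the 12 fits that leave out a library. The summed level of the 7 genes was 1380 to 1666 CPM in ethanol, 661 to 882 CPM in estradiol and 1399.8 to 1575 CPM in untreated cells. Of the 4 alpha-specific genes tested 1 fell, AFB1 (YLR040C; -0.72, SE 0.15), which ran from 17.2 to 23.8 CPM in ethanol and from 8.76 to 15.9 CPM in estradiol. In the untreated libraries AFB1 stood at 12.1 and 13.3 CPM, within the estradiol range and below every ethanol library, and its call was lost with a shared deviation (adjusted p = 0.0692 by limma). The summed alpha-cell markers held 39.6 to 48.8 CPM in ethanol, 29.3 to 37.9 CPM in estradiol and 36.0 to 37.0 CPM in untreated cells. The 5 sporulation markers held 45.4 to 52.2, 45.2 to 54.3 and 47.6 to 50.8 CPM. In bulk RNA, fewer cells of a type and less RNA per cell cannot be told apart.

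Of 29 haploid mating and pheromone response genes 2 rose and 8 fell, 6 of the latter at no single time, with a median of -0.21. AGA1 (YNR044W), the anchor of the a-agglutinin, fell by 1.82 (SE 0.24). FIG1 (YBR040W), a gene of calcium uptake and fusion in mating cells, ran from 1.36 to 2.28 CPM in ethanol and from 0.163 to 0.834 CPM in estradiol, and its lowest library held 1 count, for which no fold is given. SST2 (YLR452C), which ends pheromone signalling, and FAR1 (YJL157C), which arrests the cycle in response to it, were chosen after their values were seen. SST2 ran from 76.7 to 122 CPM and from 45.3 to 74.4 CPM and fell by 0.77 (SE 0.15, adjusted p = 0.0108), and FAR1 ran from 86.1 to 110 CPM and from 67.8 to 78.9 CPM and fell by 0.45 (SE 0.09, adjusted p = 0.0114), each without overlap between the treatments. With library totals 3 of the 10 calls were kept, and with a shared deviation 5. SST2 and FAR1 were lost with library totals (adjusted p = 0.312 and 0.393 by edgeR), and FAR1 also with a shared deviation (0.0539 by limma).

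Of the 53 gene lists, that of amino acid biosynthesis held the most calls that no single time made. Of 55 Gcn4 targets 0 rose and 11 fell, all 11 at no single time, and 50 of the 55 values were negative, with a median of -0.28. ARG1 (YOL058W), argininosuccinate synthetase, ran from 230.0 to 988 CPM in ethanol and from 79.1 to 240 CPM in estradiol and fell by 1.57 (SE 0.28, adjusted p = 0.00483). ARG3 ran from 107 to 285 CPM and from 66.9 to 170 CPM; the ranges overlapped over all times but not within any time, and its values of -0.79, -0.65 and -0.71 were close to each other. LYS9 (YNR050C) and LYS12 (YIL094C), genes of lysine synthesis, fell by 1.04 (SE 0.19) and 0.67 (SE 0.13). The list's medians at 1, 2 and 4 h were -0.69, -0.046 and -0.25, largest in size at 1 h. With a shared deviation 4 of the 11 calls were kept, and with library totals 10. The 19 cytosolic aminoacyl-tRNA synthetase genes, which supply the next step of protein synthesis, all had negative values, with a median of -0.24 and 0 called.

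Of 38 nitrogen-regulated genes 2 rose and 5 fell, all 5 at no single time. BAP2 (YBR068C) and TAT1 (YBR069C), neighbouring amino acid permease genes, fell by 1.03 (SE 0.18) and 0.75 (SE 0.18), while PUT4, the proline permease gene, rose by 3.28. A shared deviation left 3 of the 7 calls, BAP2 and PUT4 among them but not TAT1 (adjusted p = 0.119 by limma). Of 24 phosphate PHO genes 1 rose and 8 fell, 4 of them at no single time, and 22 of 24 values were negative, with a median of -0.38. PHO89 (YBR296C), a phosphate transporter gene, fell by 2.18 and PHO5 (YBR093C), an acid phosphatase gene, by 1.90, both also at single times. These were among the 4 of the 9 calls kept with a shared deviation, and 4 were kept whichever library was left out. Of 28 iron and siderophore uptake genes 1 rose and 7 fell, 4 at no single time, among them ENB1, and 22 of the 28 values were negative, with a median of -0.29. SIT1 (YEL065W), a siderophore transporter gene, fell by 2.05 and FIT1, a cell wall mannoprotein gene, rose by 2.11, and 6 of the 8 calls were kept with a shared deviation. Of 15 copper and zinc uptake genes 1 fell, the zinc transporter gene ZRT1 (YGL255W; -1.03, SE 0.22), whose call was lost with a shared deviation (adjusted p = 0.0883 by limma). That is a share near the 6.22% called over all genes tested.

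The stress and carbohydrate lists went both ways. Of 29 general stress genes 5 rose and 4 fell, 4 and 2 of them at no single time, and 5 of the 9 calls were kept with a shared deviation. The 4 that fell included SPI1, at -1.70 as above. Of 18 glycogen and trehalose genes 3 rose and 1 fell: GLC3 (YEL011W), the glycogen branching enzyme gene, rose by 0.75 (SE 0.19) and PGM2 (YMR105C), a phosphoglucomutase gene, by 0.66 (SE 0.17), both at no single time and each with its smallest value at 1 h (0.19 and 0.23). Both were lost with a shared deviation (adjusted p = 0.137 and 0.128 by limma), which left 1 of the 4 calls, and each was kept in 3 of the 12 fits that leave out a library. HSP12 (YFL014W), a small stress protein gene, held 2.28 and 3.64 CPM in ethanol and 18.0 and 27.9 CPM in estradiol at 4 h, and at most 1.26 and 2.74 CPM at the earlier times. Its average was 2.40 (SE 0.36), its single-time values 0.23, 1.35 and 2.95 and the mean of the 3 contrasts 1.52, and without the 4 h libraries it stood at 0.95 and was not called. Of 32 septin and polarity genes 3 rose and 1 fell, against 3.29% and 2.93% of all genes tested. HSL1 (YKL101W) and GIN4 (YDR507C), kinase genes of the bud neck, rose by 1.17 (SE 0.27) and 0.69 (SE 0.17), while their relative KCC4 (YCL024W) ran from 18.9 to 41.7 CPM in ethanol and from 9.25 to 15.4 CPM in estradiol and fell by 1.38 (SE 0.17, adjusted p = 0.000249). Of the 4 calls only that of KCC4 was kept with a shared deviation, and those of HSL1, GIN4 and RAX2 were lost (adjusted p = 0.0883, 0.121 and 0.0722 by limma). Of 35 cell wall integrity and remodelling genes 4 rose and 2 fell, with SLT2 (YHR030C), the kinase of the pathway, rising by 0.40 (SE 0.10). A shared deviation left 2 of these 6 calls and not SLT2 (adjusted p = 0.166 by limma), which was kept in 2 of the 12 fits that leave out a library.

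In 17 other lists 1 to 3 members were called, in all 27 of 389 genes (6.94%), a share near the 6.22% of all genes tested, and 13 of the 27 were kept with a shared deviation. Among 29 sulfate assimilation and methionine genes, MET14, MET3 and MET16 rose by 0.84, 0.55 and 0.53, the last at no single time. Among 28 sphingolipid genes SUR1 and CSH1, both subunit genes of mannosylated sphingolipid synthesis, rose by 1.44 and 0.55. Among 20 drug efflux genes RTA1 and PDR16 rose by 0.64 and 0.51 and the polyamine exporter gene TPO1 fell by 0.62, all 3 at no single time. In lists that went both ways, SPS4 rose by 2.04 and DIT1 fell by 0.55 (21 meiosis genes), the pyruvate carboxylase gene PYC1 rose by 1.38 and the aconitase gene ACO1 fell by 0.71 (22 TCA cycle genes), and TIR1 rose by 3.48 and TIP1 fell by 3.01 (8 mannoprotein genes). MNN4 rose by 0.54 and PMT3 fell by 0.78 (46 glycosylation genes), and HST3 rose while HST4 fell by 0.97 (8 sirtuin and related genes). The single calls were SWH1 at 1.42 (7 OSH genes), PRB1, a vacuolar protease gene, at 1.38 (33 vacuolar genes), URA3 at 1.82 (13 pyrimidine genes) and ATP20 at 0.91 (37 respiratory genes). On the lower side they were MPD1 at -0.59 (18 folding genes), the hexose transporter gene HXT1 at -1.06 (17 hexose transport genes), YAT1 at -1.14 (26 glucose-repressed genes), HMG1 at -0.73 (27 ergosterol genes) and LRO1 at -0.46 (29 lipid genes).

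Some large groups held 0 calls. These were the cytosolic small-subunit and large-subunit ribosomal protein genes (56 and 76 tested), ribosome biogenesis (83), mitochondrial ribosomal proteins (70), RNA polymerases I and III (21), translation factors (37), the proteasome (34), glycolysis (23), cytosolic chaperones (22), purine synthesis (21) and galactose genes (7). Their medians lay between -0.15 for translation factors and 0.12 for glycolytic genes. Scaled by library totals, the medians of mitochondrial ribosomal proteins, RNA polymerases I and III, chaperones and purine synthesis, all near 0, changed sign.

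The change of the effect between times was tested jointly by edgeR, and 0 of 6337 genes (0%) were called, with 72 genes at an unadjusted p under 0.05. A share of 5% is expected at such a p where no effect changes, and 72 of 6337 lies below it. Of the 256 genes called at no single time 0 had such a p, and of the 137 called at 1 or more times 24 did. Both sets were chosen from the same libraries, so these counts do not show like effects at the 3 times. A p that misses the threshold does not show that the 3 effects were equal. Averaging also lost 4 genes that a single time had called. MSA2 (YKR077W), a relative of MSA1, stood at -1.11, -0.87 and 0.029 at the 3 times and averaged -0.60 (adjusted p = 0.078 by edgeR). WSC4 (YHL028W), a membrane protein gene listed in the CLB2 cluster, stood at 0.48, -0.39 and -0.99. DDR48 (YMR173W), a stress gene, stood at -0.46, 1.04 and 1.29, so the values of both genes changed sign between times. The fourth, YMR173W-A, overlaps DDR48 by its name and followed it at -0.38, 1.12 and 1.30.

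The promoters of the called genes were searched for SBF and MBF elements, as a description with no test. The window from 600 to 101 bases before the start codon was searched on both strands in 5783 promoters of R64. Every CACGAAA is also a CNCGAAA, so these forms of SCB overlap. The looser form was found in 22.0% of all these promoters, in 39.0% of the 195 of higher genes and in 26.5% of the 166 of lower genes. Among higher genes it was found in 45.3% of the 75 promoters of genes called also at a single time and in 35.0% of the 120 of genes called at no single time. ACGCGT was found in 5.81% of all promoters, 16.0% of the former and 12 of the 120 latter, and in 9.04% for lower genes. The stricter CACGAAA was found in 7.11% of all, 21.3% and 9.17%. RAD27, which fell, held 2 ACGCGT and 1 CACGAAA, and RGL1, CDC28 and HST3, which rose, held no match in this window.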

How the data were processed

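DNase-treated RNA was selected for poly-A before library preparation, per the labels' protocols. Bowtie2 2.2.5 was the aligner, per the submitters' processing notes, and the build, counting tool and strand setting are each, in the sources used here, not given. Raw read counts were deposited by the authors for 6670 identifiers. Symbols came from the RefSeq R64 table, which matched 5999 of them, and promoters were read from R64 by systematic name. An induction of 1 h is all the protocols mention, so the times came from each sample's own label.

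The fits used edgeR 4.0.16 in R 4.3.3: TMM scaling, filterByExpr with a minimum count of 10, robust quasi-likelihood fits and Benjamini-Hochberg adjustment over all genes tested, 2-sided, called at an adjusted p under 0.05. The average came from 12 libraries (8 residual degrees of freedom, common biological coefficient of variation 0.207) and the single times from 1 fit to all 14 (7 degrees). SE values are the size of the log2 fold change over the root of its F statistic. Levels are TMM-scaled CPM. Of 53 lists 1 is not reported here, and the others are described by counts and medians, with no list test.

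The members and lists were chosen with earlier results of these data known. Eligible by rule were SWI4, the cell type markers and up to 4 called members of each list by p, whatever their average level. Not every gene eligible by these rules is named here, and those named after their values were seen lay outside them. The others chosen by rule had a symbol and an average log2 CPM of at least 3. They included the 6 highest and 6 lowest called. Of those called at no single time, they included the 10 higher and 10 lower of smallest p without overlap at any time. The 3 smallest changes each way among those called at no single time were taken with or without overlap. Alternatives used DESeq2 1.42.0, limma 3.58.1, sva 3.50.0, other scalings, filters and subsets of libraries.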

Additional observations from a re-analysis of the deposited data

How the results depend on the processing

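None of the 393 called genes changed sign under any alternative that tested it. Some alternatives tested fewer of them, down to 328 with a mean CPM of at least 10. The medians of 4 of the 53 lists, each with 0 calls, changed sign with library totals. Counts of genes higher and lower in the average were within 1.5 times those reported with median-of-ratios size factors, no filter, a mean CPM of at least 10, DESeq2, limma-voom, a length trend removed, thinning, means of the 3 contrasts and omission of unnamed identifiers. With library totals 137 were higher, 131 lower, and 147 were called at no single time. With 1 surrogate variable there were 629 and 628, at an adjusted p under 0.01 95 and 74, without the 1 h libraries 132 and 105, without those of 2 h 82 and 71, and without those of 4 h 61 and 40. Like totals did not mean the same genes. Of the 256, thinning kept 145 and the mean of the 3 contrasts kept 141 with 12 libraries and 208 with 14. Without the 1 h, 2 h or 4 h libraries 87, 38 and 9 of the 256 were kept, in fits with fewer libraries. Leaving out each library in turn gave 115 to 215 higher, 100 to 230 lower, 87 to 295 genes at 1 or more single times and 105 to 282 at none, the 295 without ethanol 1 h replicate 2 and the 105 without estradiol 2 h replicate 1. Without ethanol 1 h replicate 1 there were 215 and 174, with 202 of the 256 kept, and without estradiol 2 h replicate 2 there were 215 and 230, with 227 kept. Higher genes numbered 138 and 115 without ethanol 2 h replicates 1 and 2, 131 and 119 without ethanol 4 h replicates 1 and 2, and 133 without either estradiol 4 h replicate. Lower genes numbered 108 when ethanol 2 h replicate 2 was omitted and 100 when ethanol 4 h replicate 2 was. They numbered 121 and 104 on omitting replicate 1 of estradiol at 2 h and at 4 h, respectively. The leave-one-out counts of genes at single times and at none, and the settings that follow, were chosen after seeing the data. With treatment and replicate number as a random block (estimated correlation 0.226) 95 were higher and 77 lower, and with the counts of the 3 times summed 60 and 44, with 8 of the 256 kept; the number of samples fell with the sums.

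Same-numbered libraries deviated together in 5 groups (correlations of 0.314 to 0.741) but oppositely with ethanol 1 h (-0.305 to -0.692). Whether the numbers pair the samples is not in the labels and was not tested. With the replicate block 224 genes were higher and 194 lower, and 145 passed at 1 or more single times.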

Other observations

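Some called genes are divergent neighbours, which share the stretch between their start codons. Of 1470 such pairs with both genes tested, 154 had 1 or more called and 17 had both called, 10 of them in the same direction; the pairs described here were chosen after their values were seen. HHT2 and HHF2, a histone pair, rose by 0.49 and 0.60, and RGL1 and HTC1 rose by 1.02 and 1.09, all 4 at no single time. NDD1, an activator of mitotic genes, and NUD1 rose by 0.51 and 0.45, and BBP1, a spindle pole gene, rose by 1.04 beside CLN2. MCM5 fell by 1.10 beside PIG1, which fell by 1.67, and ASF1 fell by 0.70 beside NCA3, which fell by 1.70. In 7 pairs the genes went opposite ways: WHI5 fell by 1.25 beside TGL5, a lipase gene that rose by 1.76, and DAP1 rose by 0.52 beside OYE3, which fell by 0.82.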
